A study of Danio rerio with 10 samples.

Results

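The 8 genes described here, *pth1a*, *pth1b*, *pthlha*, *pthlhb*, *pth1ra*, *stc1*, *stc2a* and *casr*, encode hormones, a receptor and a sensor that control calcium in the body. They are 8 of 19260 genes named by a single symbol on the array. Each was found by its symbol in the array annotation (7 genes), or, for *pth1ra*, which the annotation calls *pth1r*, through its gene ID (1 gene), and where a gene had more than 1 probe set the one with the highest mean over the 10 arrays was kept. This choice arose only for *pthlhb*, whose probe sets carry identical values on every array and were counted once, so the 8 genes rest on 9 probe sets. The probe sets were thus chosen by their mean log2 signal over all 10 arrays, and the genes were put together with earlier results of these arrays known. The fitted p-values below therefore describe these arrays and are no independent evidence for any of the 8.

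Parathyroid hormone (PTH) and parathyroid hormone-related protein (PTHrP, gene symbol PTHLH in mammals) are related secreted peptides that act on the same G protein-coupled receptor, PTH1R, which signals through cyclic AMP and through phospholipase C. In mammals PTH raises blood calcium by acting on bone and kidney, whereas PTHrP acts mostly near its source and holds back the maturation of cartilage cells. Fish have no encapsulated parathyroid glands, and zebrafish carry duplicate genes for both hormones. Stanniocalcins are secreted glycoproteins named after the corpuscles of Stannius, glands of the fish kidney, and in fish they lower calcium uptake. The calcium-sensing receptor, *casr*, is the cell surface protein by which endocrine cells measure extracellular calcium, and skin ionocytes are the cells through which zebrafish embryos take up ions from the water.

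RNA from pools of whole embryos at 48 hpf (2 dpf) was hybridized to 10 GeneChip Zebrafish Gene 1.0 ST arrays, 1 pool per array, from 100 ng of total RNA. Morphants (3 arrays) were wildtype embryos that received a morpholino, an antisense oligomer that blocks translation of *islet2a* mRNA, and mutants (3 arrays) were homozygous for a TALEN-induced deletion in *islet2a*, a gene for a LIM-homeodomain transcription factor of neurons. Wildtype controls were uninjected embryos (2 arrays) and homozygous wildtype siblings of the mutants (2 arrays), and as in the methods of the study both kinds were joined into 1 control group (n = 4). The sample titles call the sibling arrays mock controls, whereas their source names and descriptions, which were followed here, give siblings. No array used here came from embryos injected with a control morpholino, so that injection and loss of *islet2a* translation cannot be told apart in the morphants. The values are log2 signals, so that a difference of 1 is a 2-fold change. The median signal per array ran from 4.92 to 4.96.

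The targeted transcript, *isl2a*, gave a log2 signal of 8.55 ± 0.05 (SD, n = 2) in uninjected wildtype, 8.59 ± 0.03 (SD, n = 2) in siblings, 9.89 ± 0.09 in the morphants (SD, n = 3) and 9.06 ± 0.10 in the mutants (SD, n = 3). It was higher in morphants and mutants than in any control array. The morphants exceeded controls by 1.316 (adjusted p = 5.18e-05 from limma), which is 2.49-fold. The mutants differed from controls by 0.495 (adjusted p = 0.0474 from limma), which is 1.41-fold, and from siblings alone by 0.47 (adjusted p = 0.176). By qPCR the study detected an increase of *islet2a* in morphants and no change in mutants. The arrays measure mRNA, so the level of *isl2a* shows neither the translation block nor the small deletion. Arrays of a group correlated at r = 0.983 to 0.992 across probe sets and arrays of different groups at 0.972 to 0.988, across probe sets that are not independent replicates.

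Among the hormone genes, *pth1a*, 1 of the zebrafish genes for PTH, stood at low signal in every embryo pool except the morphants. Its log2 signal was 3.94 and 3.33 in uninjected wildtype and 3.63 and 3.715 in sibling wildtype. The mutants gave 3.81, 3.91 and 4.04. The morphants gave 6.59, 5.43 and 7.38. All 7 arrays of wildtype and mutant embryos lay below the median of their array and all 3 morphant arrays above it, and the morphants overlapped neither mutants nor controls. The morphants also differed among themselves, with an SD of 0.98 on the log2 scale against 0.12 in mutants and 0.25 in controls. In whole-embryo RNA, fewer cells of a type and less RNA per cell cannot be told apart, and this holds for every gene below.

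The mean of *pth1a* was 6.47 in morphants, 3.92 in mutants and 3.66 in controls. Morphants exceeded mutants by 2.55 on the log2 scale (standard error 0.38, 95% confidence interval 1.70 to 3.40), a 5.86-fold difference with an adjusted p of 0.00267 from limma. They exceeded controls by 2.81 (standard error 0.36, 95% confidence interval 2.02 to 3.61), a 7.03-fold difference with an adjusted p of 0.00195. Mutants and controls differed by 0.26 (95% confidence interval -0.53 to 1.06, adjusted p = 0.815), an interval that reaches past a 2-fold rise. Calls required both an adjusted p below 0.05, taken over all 75212 probe sets, and a 2-fold or greater difference. The exact two-sided permutation test of *pth1a* alone gave 0.1 for 3 arrays against 3 and 0.0571 for 3 against 4, the smallest values these designs allow. With the pairwise tests of the study's methods, fitted per probe set on the arrays of 2 groups and adjusted in the same way, the adjusted p was 0.0977 against mutants and 0.0863 against controls, and neither difference was then called. These tests were rebuilt here from the methods and may differ from those the study ran. Its own lists of differing genes were not compared.

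Each kind of wildtype was also taken on its own, in a fit with 4 groups. Uninjected and sibling wildtype differed by -0.04 in *pth1a* (95% confidence interval -1.14 to 1.07), which is little in size but wide in error with 2 arrays each. Morphants exceeded uninjected wildtype by 2.83, a 7.12-fold difference (adjusted p = 0.0164), and mutants exceeded their siblings by 0.24 (95% confidence interval -0.77 to 1.25, adjusted p = 0.912). The difference between these changes was 2.59 (standard error 0.63, 95% confidence interval 1.16 to 4.01, unadjusted p = 0.0026), and its adjusted p of 0.103 missed the threshold. Without morphant replicate 2, the lowest of the morphant arrays, this difference was 3.11 with an adjusted p of 0.0235. Against uninjected wildtype alone, the call of *pth1a* was lost without uninjected replicate 1 (3.14, adjusted p = 0.0702), without uninjected replicate 2 (2.53, adjusted p = 0.104) or without morphant replicate 1 (2.77, adjusted p = 0.0605).

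The paralog *pth1b*, the other zebrafish gene for PTH, followed with a much smaller difference that did not pass the test. Its log2 signal was 4.76, 4.40 and 5.62 in morphants, 4.37, 4.27 and 4.51 in mutants, 4.35 and 4.39 in uninjected wildtype and 4.26 and 4.705 in siblings. Morphant replicate 3 was the single array above the median of its array, and morphant replicate 2 fell inside the range of the mutants. Morphants were 0.54 above mutants (95% confidence interval -0.03 to 1.12, adjusted p = 0.203) and 0.50 above controls (95% confidence interval -0.04 to 1.04, adjusted p = 0.300). Without morphant replicate 3 these differences were 0.195 and 0.153.

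**Figure D1:**
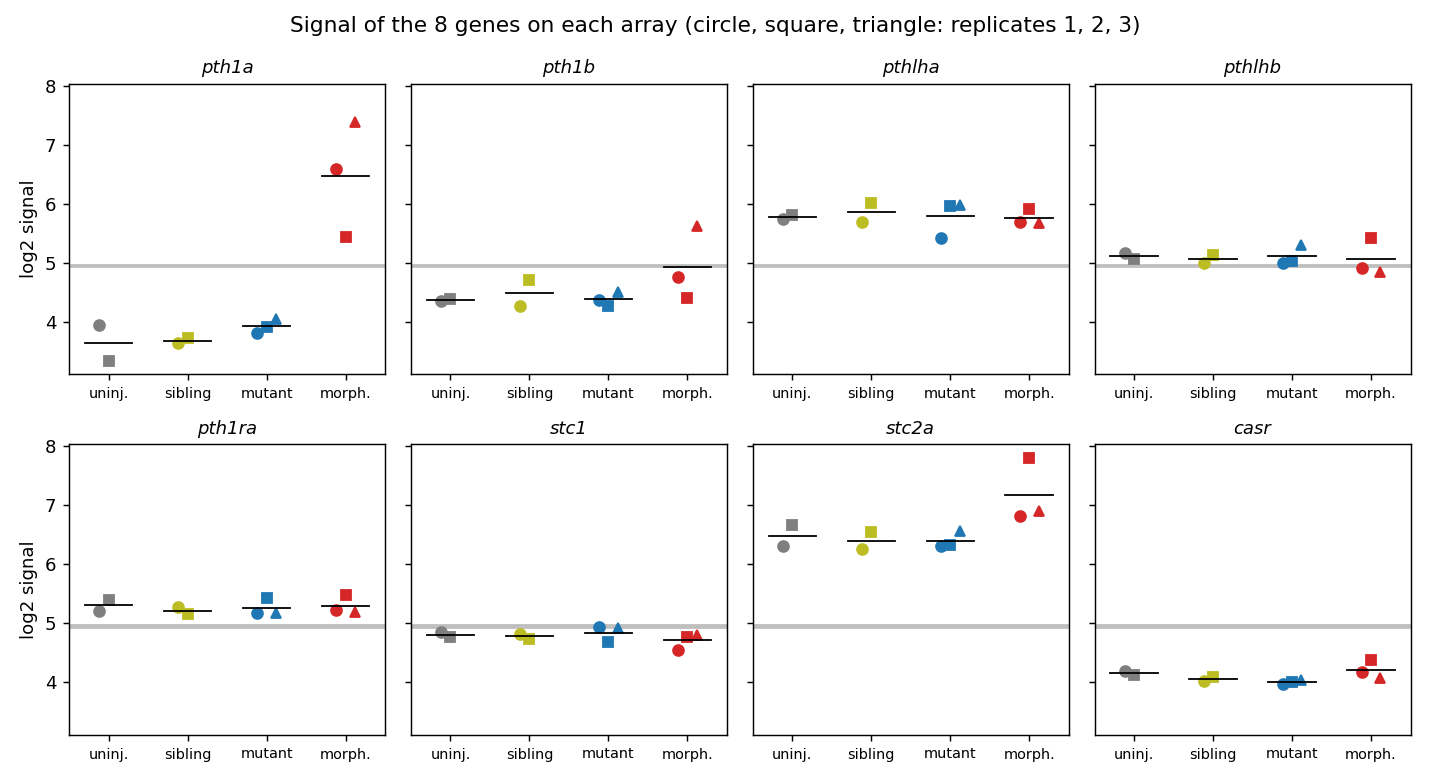
Log2 signal of the 8 genes on each of the 10 arrays, by group (uninj., uninjected wildtype; sibling, sibling wildtype; morph., morphant), with a horizontal line at each group mean and a grey band at the array medians of 4.92 to 4.96. The morphant arrays of *pth1a* lie at 5.43 to 7.38 against 3.33 to 4.04 for all others, those of *stc2a* lie above all others by less, and the remaining panels overlap apart from *casr*, where morphants lie above mutants.

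The genes for PTHrP showed no such pattern. *pthlha* lay between 5.43 (mutant replicate 1) and 6.01 (sibling replicate 2) and was above the median on all 10 arrays. Its group means were 5.75 ± 0.13 in the morphants (SD, n = 3), 5.79 ± 0.32 in the mutants (SD, n = 3) and 5.81 ± 0.14 in the controls (SD, n = 4). Morphants differed from mutants by -0.04 (95% confidence interval -0.38 to 0.31) and from controls by -0.06 (95% confidence interval -0.38 to 0.26), so that a 2-fold change lay outside both intervals. *pthlhb* lay between 4.85 and 5.42, with both its lowest and its highest value in a morphant (replicates 3 and 2). It differed by -0.05 between morphants and mutants (95% confidence interval -0.38 to 0.29) and by -0.03 between morphants and controls (95% confidence interval -0.34 to 0.29).

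The receptor gene *pth1ra*, through which both kinds of peptide signal, had the narrowest range of the 8 genes on these arrays, 0.32 on the log2 scale. Its values ran from 5.16 to 5.48, above the array median on every array. The difference between morphants and mutants was 0.04 (95% confidence interval -0.21 to 0.30), that between morphants and controls 0.04 (95% confidence interval -0.20 to 0.28), and that between mutants and controls 0.00 (95% confidence interval -0.24 to 0.24). The adjusted p-values of these comparisons ran from 0.86 to 0.993. In the morphants the hormone gene *pth1a* was measured at 7.03 times its control level, and the receptor gene at 1.03 times.

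Of the stanniocalcin genes, *stc2a* was the higher in morphants, by less than 2-fold. It gave 6.83, 7.81 and 6.91 in morphants, 6.305, 6.32 and 6.56 in mutants, 6.30 and 6.67 in uninjected wildtype and 6.25 and 6.55 in siblings. Every morphant lay above every other array, although morphant replicate 1 exceeded uninjected replicate 2 only by 6.83 to 6.67. The difference was 0.79 from mutants (standard error 0.23, 95% confidence interval 0.27 to 1.31, 1.73-fold, adjusted p = 0.0509) and 0.74 from controls (standard error 0.22, 95% confidence interval 0.25 to 1.22, 1.67-fold, adjusted p = 0.0894). Neither met the threshold on p or on fold. Over the alternatives the adjusted p ran from 0.0165 to 0.239 against mutants and from 0.0277 to 0.31 against controls, and the difference stayed below 2-fold in all of them. It was 0.47 from mutants (adjusted p = 0.0792) and 0.42 from controls (adjusted p = 0.164) without morphant replicate 2, the highest array. Mutants and controls differed by -0.05 (95% confidence interval -0.54 to 0.44).

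*stc1* lay below the array median on all 10 arrays, between 4.56 (morphant replicate 1) and 4.93 (mutant replicate 1). It differed by -0.13 between morphants and mutants (95% confidence interval -0.36 to 0.09), by -0.08 between morphants and controls (95% confidence interval -0.30 to 0.13) and by 0.05 between mutants and controls (95% confidence interval -0.16 to 0.26). RefSeq lists the symbol *stc1* also as an older name of another gene, *stc1l*, which was measured by its own probe set and is given with the relatives below.

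*casr*, the calcium sensor, was the gene with low signal on all 10 arrays beside *stc1*, at 4.17, 4.37 and 4.07 in morphants, 3.97, 4.00 and 4.04 in mutants, 4.19 and 4.13 in uninjected wildtype and 4.01 and 4.10 in siblings. Morphants and mutants did not overlap, and both overlapped the controls. The difference between morphants and mutants was 0.20 (95% confidence interval -0.01 to 0.42, adjusted p = 0.21), that between morphants and controls 0.10 (95% confidence interval -0.10 to 0.30) and that between mutants and controls -0.10 (95% confidence interval -0.30 to 0.10). None of these differences exceeded the spread between arrays by the test.

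Across the 8 genes, 1 was called higher in morphants than in mutants and 1 higher in morphants than in controls, in both cases *pth1a*, and none was called lower. Over all probe sets, 2.52% were called between morphants and mutants (1.64% higher) and 0.818% between morphants and controls (0.67% higher). No member was called between mutants and controls (0 also at an unadjusted p below 0.05 in limma, where 13.4% of all probe sets were, and 0 by the pairwise tests), where 0.164% of all probe sets were, and none was between the kinds of wildtype, where 0.0319% were. Against uninjected wildtype alone 1 of 8 was called higher in morphants, beside 0.562% of all probe sets, against siblings 0 of 8 in mutants, beside 0.148%, and for the difference of these changes 0 of 8, beside 0.594%. Morphants lay above all mutants for 3 genes, *pth1a*, *stc2a* and *casr*, as they did for 16.4% of all probe sets, and above all controls for *pth1a* and *stc2a*, as they did for 9.18%. The median difference of the 8 genes was 0.12 between morphants and mutants, 0.07 between morphants and controls and -0.01 between mutants and controls, against -0.04, -0.02 and 0.01 over all probe sets. Morphants enter both of the first comparisons and controls both of the last, so these counts are not independent of each other.

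**Figure D2:**
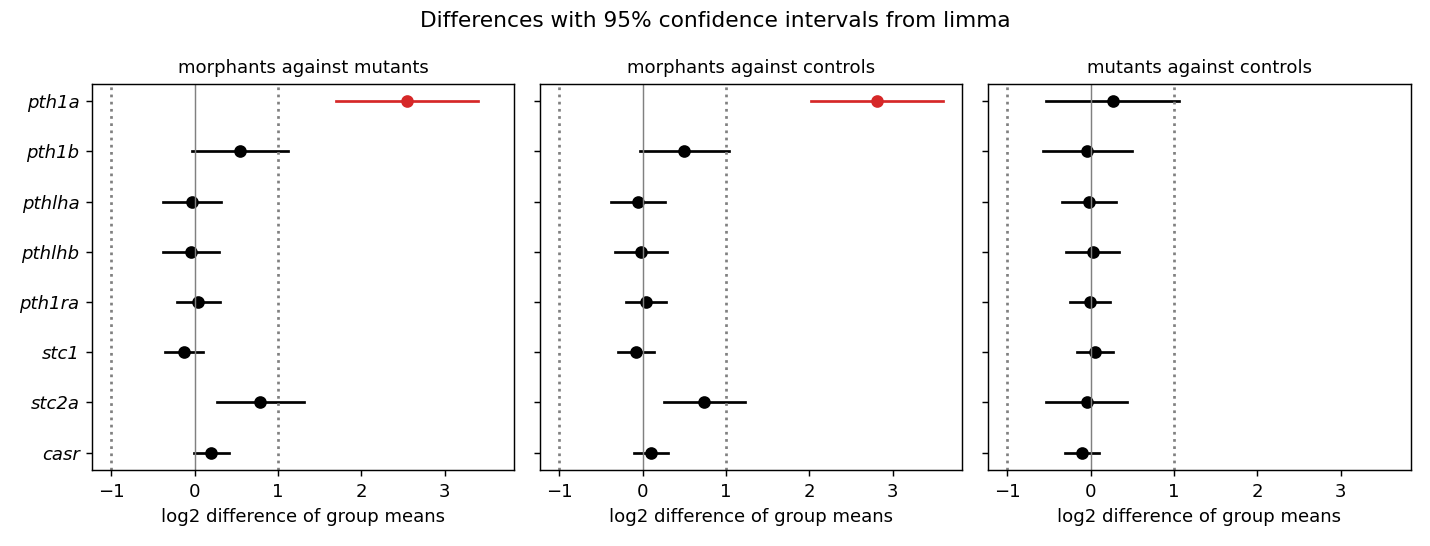
Differences of group means on the log2 scale (points) with 95% confidence intervals (lines) for the 8 genes in the 3 comparisons; red marks called genes and dotted lines a 2-fold change. Only *pth1a* is red, at 2.55 and 2.81, and in mutants against controls every interval includes 0.

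Within the morphants the genes did not follow 1 order. *pth1a* and *pth1b* were highest in morphant replicate 3 and lowest, among morphants, in replicate 2. *stc2a* and *casr* were highest in morphant replicate 2, as were *pthlhb* and *pth1ra*. Among the morphants alone, *pthlha* was also highest in replicate 2 (5.91), and *stc1* in replicate 3 (4.81). Over the 10 arrays Pearson's r was 0.80 between *pth1a* and *pth1b*, 0.82 between *stc2a* and *casr*, and 0.555 between *pth1a* and *stc2a*. Between *pth1a* and its receptor gene *pth1ra* r was -0.09. These values are descriptions over arrays that share groups, and the first pair shares the high morphant arrays.

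Among 2816 genes with a range of at least 1 on the log2 scale and named by 1 symbol, those whose signal followed *pth1a* most closely over the 10 arrays were *hspb9*, a small heat shock protein gene (Pearson's r = 0.987), *lyrm1* (0.984) and *xirp1*, a gene for an actin-binding protein of striated muscle (0.983). *hspb9* gave 8.53, 7.65 and 9.84 in morphants and 4.51 to 5.54 elsewhere, in the same order of morphants as *pth1a*. It rose by 3.90 over controls (standard error 0.41, adjusted p = 0.000814), *xirp1* by 1.82 (standard error 0.25, adjusted p = 0.00278), and *lyrm1* by 0.91, under 2-fold (standard error 0.13, adjusted p = 0.00416). Closest to *pth1b* were *lepa*, a gene for leptin (0.889), *LOC100332267* (0.888) and *ccn1l1* (0.872). *lepa* stood at 6.31, 4.50 and 8.13 in morphants and 2.88 to 3.27 elsewhere, a range wider than that of *pth1b*, and was called in morphants against controls (3.28, standard error 0.63, adjusted p = 0.0156). Closest to *stc2a* were *slc52a3-1*, named after a riboflavin transporter (0.969), *abcc2*, an ABC export pump gene (0.953), and *zgc:113210* (0.953), each highest in morphant replicate 2 as *stc2a* was. The likeness was ranked over so many genes that high values had to occur, and no test of it was made. These genes were picked for following a member over the same arrays. Their shared peaks, morphant differences and adjusted p-values therefore follow in part from that choice and are no separate evidence.

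**Figure D3:**
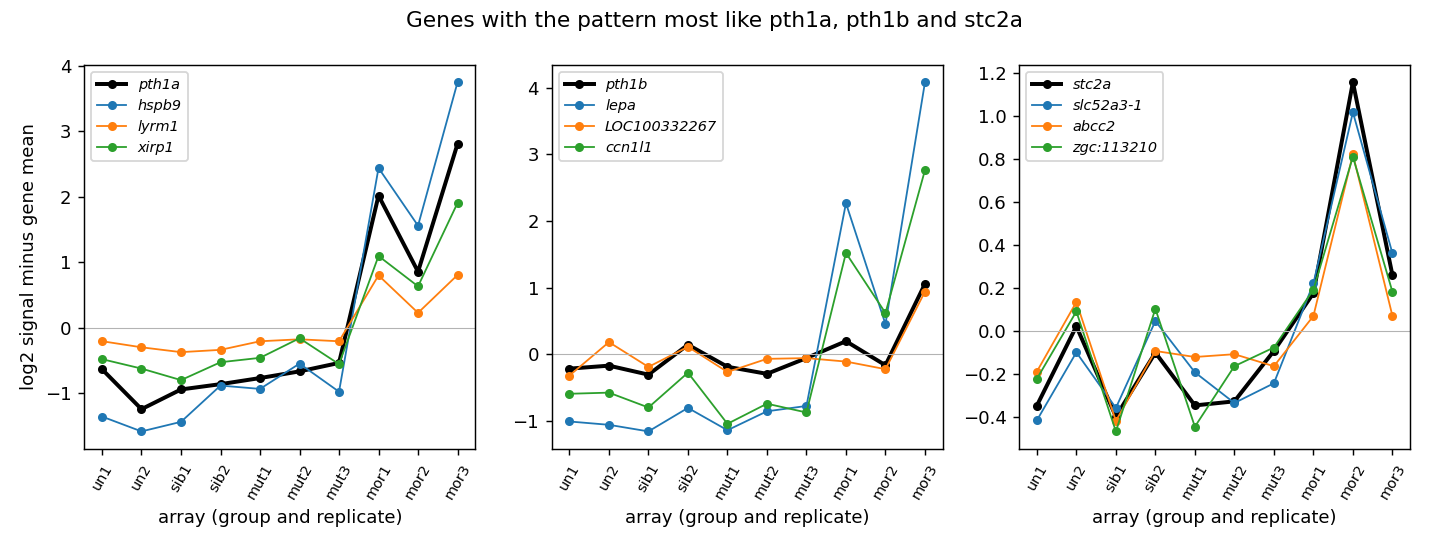
Log2 signal minus the mean of each gene over the 10 arrays (un, uninjected wildtype; sib, sibling wildtype; mut, mutant; mor, morphant; the digit is the replicate) for *pth1a*, *pth1b* and *stc2a* in black and the 3 genes most like each in colour. The curves of *pth1a* and its likes peak in morphant replicate 3, and those of *stc2a* and its likes in morphant replicate 2. For *lyrm1* morphant replicates 3 and 1 are nearly level (6.833 and 6.827 before the mean is taken off). The likes were picked for following each gene over these arrays.

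In the RefSeq gene order the pair of pth1 genes lies in duplicate blocks. *pth1a* has *galnt18a* and *zgc:162634* on one side and *btbd10a* and *bmal1a* on the other, and *pth1b* has *galnt18b* on one side and *btbd10b* and *bmal1b* on the other. *galnt18* genes encode glycosyltransferases and *bmal1* genes encode a clock transcription factor. Of the 4 neighbours measured at *pth1a* none was called in any of the 3 main comparisons, and neither was any of the 3 at *pth1b*. The adjacent gene *zgc:162634* was higher in morphants by 0.61 than in mutants (standard error 0.10, adjusted p = 0.00311) and by 0.54 than in controls (standard error 0.09, adjusted p = 0.00747), that is 1.53-fold and 1.45-fold, which was under the fold a call needs. *btbd10a*, on the other side, differed by -0.30 (adjusted p = 0.139) and -0.01 (adjusted p = 0.988). Over all probe sets, 1.64% were called higher in morphants than in mutants and 0.67% higher than in controls. The shares that passed an adjusted p of 0.05 at any fold, as *zgc:162634* did, were 13.6% and 5.17% in either direction. Of 25 measured genes within 2 places of any of the 8 genes, 1 was called higher in both comparisons. This was *rtcb*, an RNA ligase gene next to *pthlha*, singled out after its values were seen, at 1.45 and 1.29 above mutants and controls, while *pthlha* itself differed by -0.04 and -0.06.

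**Figure D4:**
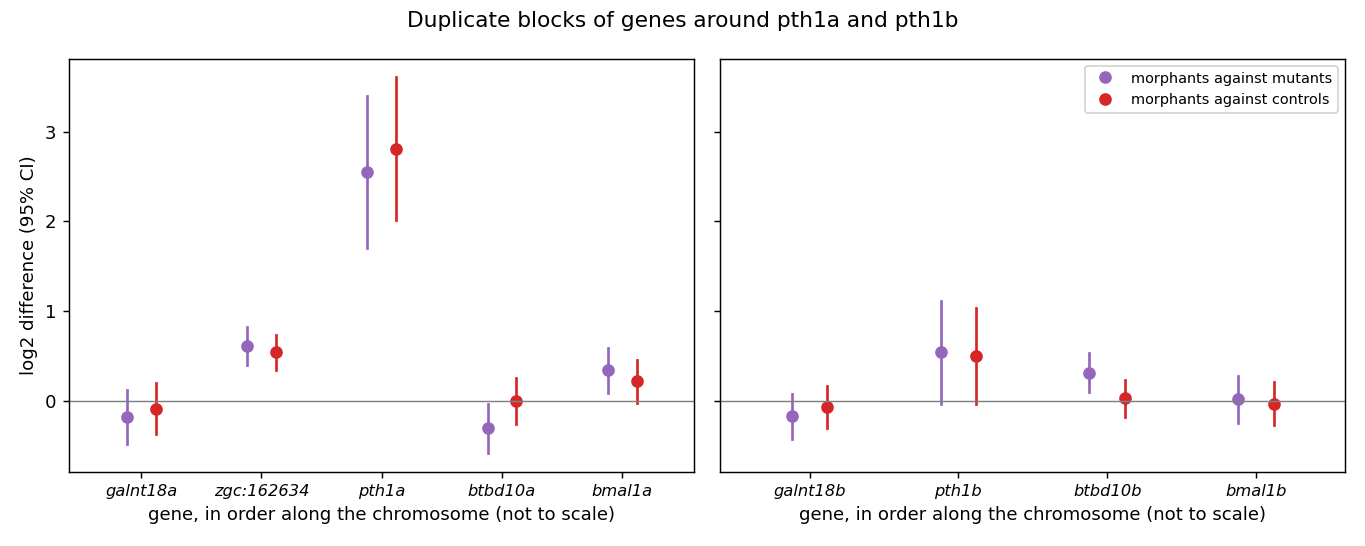
Log2 differences with 95% confidence intervals of morphants against mutants (purple) and against controls (red) for the genes around *pth1a* and *pth1b* in chromosome order, the block of *pth1b* turned to match and not to scale. *pth1a* stands at 2.55 and 2.81, and the intervals of *pth1b* (0.54 and 0.50) reach 0.

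Of 102 further genes listed for calcium and phosphate handling, 87 were measured by a probe set with 1 symbol. Between morphants and mutants none of them was called higher and 1 lower, between morphants and controls none was called (6 at an adjusted p below 0.05 at any fold), and between mutants and controls none was (13 at an unadjusted p below 0.05 in limma). At an adjusted p below 0.05 and any fold, 8 were higher and 5 lower in morphants than in mutants, 13 of 87 beside 13.6% of all probe sets. In morphants against controls 5 were higher and 1 lower, beside 5.17% of all probe sets, and in mutants against controls none moved, beside 0.338%. The median difference of the 87 genes was -0.05 between morphants and mutants and 0.01 between morphants and controls.

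None of the other PTH ligand and receptor genes passed the test in any of the 3 main comparisons (0 of 4 measured). *pth2*, which encodes a peptide of the nervous system related to PTH, gave 4.07 to 4.51 over all arrays and differed by -0.14 between morphants and mutants. The receptor genes *pth3r* and *pth2ra* differed by 0.00 and -0.12, and *pth2rb* by 0.05 from mutants and by 0.32 from controls (adjusted p = 0.185).

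Among the stanniocalcin relatives and their partners, 1 of 4 passed the test on p in morphants against controls, beside 5.17% of all probe sets. This was *igfbp5a*, whose product binds insulin-like growth factors and is cleaved by the proteases that stanniocalcins inhibit in mammals, at 5.18 to 5.34 in morphants and 4.63 to 4.99 elsewhere (0.41 above controls, adjusted p = 0.0398, and 0.31 above mutants, adjusted p = 0.0761). The relatives *stc1l* and *stc2b* had negative differences, opposite in sign to *stc2a*, and did not pass the test. *stc1l* stood at 6.26, 6.33 and 6.13 in morphants and at 6.29 to 7.34 elsewhere, with a difference of -0.48 from controls (95% confidence interval -0.94 to -0.02, adjusted p = 0.244). *stc2b* differed by -0.36 from controls (adjusted p = 0.324).

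Of 13 genes of receptor signalling, *gnaq*, a G protein subunit that couples receptors to phospholipase C, was higher in morphants than in mutants by 0.45 (standard error 0.12, adjusted p = 0.0382), 1 gene was lower and none reached 2-fold. Between morphants and mutants, 13.6% of all probe sets passed an adjusted p of 0.05 at any fold. Of 11 genes for calcium channels, pumps, exchangers and buffers, 1 was lower in morphants than in mutants at an adjusted p below 0.05. In that list the widest difference was that of *atp2b1b*, a plasma membrane calcium pump gene, with -0.66 and an adjusted p of 0.0846. Of 10 vitamin D genes, *gc*, which encodes the carrier protein of vitamin D in blood, differed by -0.94 on the log2 scale between morphants and mutants (standard error 0.18, adjusted p = 0.0089). It stood at 3.67 to 4.02 in morphants, 3.63 to 4.00 in controls and 4.36, 4.83 and 5.12 in mutants, so that morphants and controls overlapped and the mutants stood apart, 0.985 above controls with an adjusted p of 0.0519.

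Of 6 calcitonin genes 1 was higher in morphants than in mutants and in controls at any fold, while *calcr*, the calcitonin receptor gene, differed by -0.46 (adjusted p = 0.174). At an adjusted p below 0.05 and any fold, 13.6% of all probe sets passed between morphants and mutants and 5.17% between morphants and controls. Of 17 phosphate genes 3 were higher and 1 lower in morphants than in mutants. The lower one was *entpd5a*, an ectonucleotidase gene needed for mineralization in zebrafish, at 4.71, 5.03 and 5.05 in morphants and 5.36, 5.82 and 5.79 in mutants (-0.73, standard error 0.19, adjusted p = 0.0319). It differed by -0.12 between morphants and controls.

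The called gene of the pathway lists was *col10a1a*, 1 of 17 genes of cartilage and bone, which encodes type X collagen, a matrix protein of hypertrophic cartilage that zebrafish osteoblasts also express. Of 3 probe sets of *col10a1a*, the one with the highest mean over the 10 arrays is given, and the others are not. Its log2 signal was 5.495, 5.91 and 6.39 in morphants, 7.45, 8.49 and 7.69 in mutants, 6.97 and 5.89 in uninjected wildtype and 6.30 and 7.54 in siblings. Morphants lay below every mutant by a mean difference of -1.95 (standard error 0.42, 95% confidence interval -2.88 to -1.02, 3.86-fold, adjusted p = 0.0135), and the controls overlapped both groups. Neither morphants (-0.74, adjusted p = 0.349) nor mutants (1.21, that is 2.30-fold, adjusted p = 0.219) passed the test against controls. Leaving out mutant replicate 2, the highest array, ended the call, and so did the pairwise tests of the methods. In the same list 2 genes were higher in morphants than in mutants at any fold, beside 13.6% of all probe sets in either direction. Among them was *sost*, the gene for sclerostin, an inhibitor of Wnt signalling in bone, which was singled out after its values were seen. It stood at 7.95 to 8.29 in morphants and 6.98 to 7.44 elsewhere, 0.94 above mutants (standard error 0.14, adjusted p = 0.00242).

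Of 5 regulators of the pharyngeal pouches and parathyroid gland, *gcm2*, which in mice is required for the parathyroid gland, gave 6.58, 6.88 and 6.73 in morphants, 6.84, 6.77 and 7.11 in mutants and 6.34 to 6.95 in controls. It did not pass the test (-0.17 from mutants, adjusted p = 0.531, and 0.14 from controls, adjusted p = 0.673). *pax1a*, a pharyngeal pouch gene, was 0.45 higher in morphants than in mutants (standard error 0.12, adjusted p = 0.0335) and 0.27 higher than in controls (adjusted p = 0.228).

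**Figure D5:**
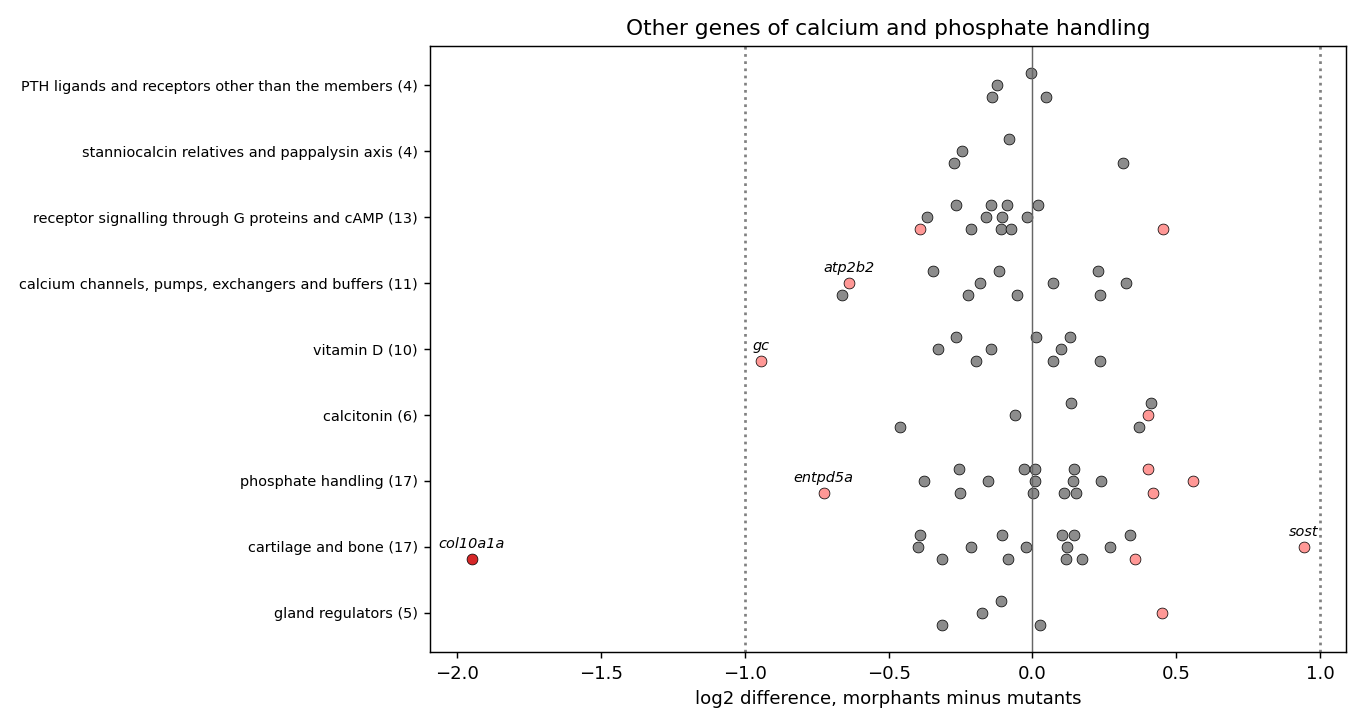
Log2 differences of morphants minus mutants for 87 further genes in 9 lists (number measured in brackets); dark red marks a called gene, light red an adjusted p below 0.05 with less than a 2-fold change and grey the rest, and dotted lines mark 2-fold. Only *col10a1a*, at -1.95, lies beyond the dotted lines.

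Marker lists of the cell types in which these genes may act were read in the same arrays. Of all probe sets, 13.6% passed an adjusted p of 0.05 at any fold between morphants and mutants, and 5.17% between morphants and controls. The summed linear signal of 10 skin ionocyte markers was 2341 to 2362 in morphants, 1866 to 2001 in mutants and 1741 to 1950 in controls. This sum was higher in the morphants than in the other groups. On the linear scale the bright genes *ca2* and *atp6v1aa* take much of each sum. Between morphants and mutants they differed by 0.41 and -0.14, and *ca15a* and *slc12a10.2* by -0.06 and 0.06. Of these markers 1 was called higher in morphants, *rhcga*, an ammonia transporter gene (2.77 above mutants with an adjusted p of 0.00169, and 2.95 above controls with an adjusted p of 0.0014), and 4 were higher than in mutants at any fold. *foxi3a* and *foxi3b*, which encode the transcription factors that define ionocyte precursors, differed by 0.03 and 0.08 between morphants and mutants and by 0.25 and 0.22 between morphants and controls, and did not pass the test. The part of these cells in the result for *pth1a* was not tested.

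The other lists gave these sums. Those of 5 neuronal markers were 2893 to 4814 in morphants, 5001 to 5945 in mutants and 4399 to 4892 in controls, so that morphants lay below mutants and overlapped controls. The bright gene *elavl3* takes much of each neuronal sum, and it differed by -0.41 between morphants and mutants (adjusted p = 0.243). Of the neuronal markers 3 were lower in morphants than in mutants at an adjusted p below 0.05 and none passed against controls. Those of 5 erythrocyte markers were 10525 to 11445 in morphants, 14236 to 15145 in mutants and 11943 to 13253 in controls. None of the groups overlapped in this sum, of which the bright genes *hbae1.1* and *hbae3* take much on the linear scale. Between morphants and mutants these genes differed by -0.11 (adjusted p = 0.448) and -0.53 (adjusted p = 0.00474). Singly, 2 of the 5 were lower in morphants than in mutants at an adjusted p below 0.05. Of these *alas2* was called (-1.34, adjusted p = 0.000782), and it differed by -0.81 from controls (adjusted p = 0.0104), under 2-fold. Liver sums (4 markers) were 2602 to 2957 in morphants, 3234 to 3393 in mutants and 2842 to 3672 in controls. Morphants lay below mutants, but no single marker passed the test. Between morphants and mutants *serpina1* differed by -2.74 (adjusted p = 0.082), and *apoa2*, *ahsg1* and *fgb* by -0.12, -0.05 and 0.21. *serpina1* also differed by -2.665 between uninjected and sibling wildtype (adjusted p = 0.487). Against their own wildtype, morphants differed by -0.22 and mutants by -0.14 in this gene. Skeletal muscle sums (6 markers) overlapped between all groups (15673 to 17796). The sums of 11 markers of the distal nephron, next to which the corpuscles of Stannius form, overlapped between morphants (2204 to 2581) and mutants (2393 to 2538). They were 2537 to 2725 in controls. Singly, 7 of the 11 had positive differences between morphants and mutants, and *hnf1bb* passed on p (0.38, adjusted p = 0.0432). The bright genes *pax2a*, *mecom* and *irx3b* differed by -0.32, -0.30 and -0.39, and the dim *kcnj1a.1* by -0.41. Against controls *emx1* passed on p (0.35, adjusted p = 0.0325).

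The sums of 8 lateral line markers overlapped between all groups, and on the linear scale the bright gene *cldnb* takes much of each sum. Singly, 5 of the 8 passed an adjusted p of 0.05 between morphants and mutants, beside 13.6% of all probe sets. They did so in both directions and under 2-fold. *atoh1a* (0.88) and *six4b* (0.41), which encode transcription factors, were higher in morphants, and the hair cell genes *pou4f3* (-0.54), *otofb* (-0.51) and *myo6b* (-0.40) were lower. Against controls *myo6b* passed as well (-0.50). Those of 8 pituitary markers were 232 to 269 in morphants, 206 to 228 in mutants and 199 to 236 in controls, and morphants and controls overlapped. In this list 1 marker passed the test on p, *prl*, the prolactin gene. It was higher in morphants than in mutants by 0.81 (adjusted p = 0.0223) and than in controls by 0.99 (adjusted p = 0.0134), both under 2-fold. Against their own wildtype, morphants differed by 0.74 (adjusted p = 0.0715) and mutants by 0.42 (adjusted p = 0.461) in *prl*. The difference between these changes was 0.32 (adjusted p = 0.578), and uninjected and sibling wildtype differed by 0.49 (adjusted p = 0.655). The growth hormone gene *gh1* and the hormone subunit gene *cga* were among 3 pituitary markers below the array median on all 10 arrays. The part of any of these cells in the results for the 8 genes was not tested.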

How the data were processed

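RNA of whole zebrafish embryos was measured on 10 single-channel arrays. The deposited values are log2 signals for 75212 probe sets, made by the authors. The methods name robust multi-array averaging with oligo in R (background correction, quantile normalization, median polish), and the submitters' processing notes name GCRMA, which corrects background differently, without versions. Which of them made the values was not settled, and it bears on the size of differences near background, as in *pth1a*, *pth1b*, *stc1* and *casr*. Values ran from 1.39 to 13.25 and were used without filter or further normalization. The array annotation gave 1 symbol to 20806 probe sets, several to 855 and none to 53551. For 20323 of the probe sets with 1 symbol the gene ID was found in RefSeq (GRCz12tu), which gave names and gene order.

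limma 3.58.1 in R 4.3.3 (lmFit, eBayes) fitted 3 group means (residual degrees of freedom 7, prior 3.13), and 4 group means where the kinds of wildtype were taken apart (6 and 3.22). Tests were two-sided, with Benjamini-Hochberg adjustment over all probe sets, and calls needed an adjusted p below 0.05 and a 2-fold change. Exact permutation tests used scipy 1.17.1. The scripts were tested on simulated data. The p-values reflect no more than the variation among these pools, because neither labels nor methods say whether pools came from separate clutches, and the number of arrays limits the precision.

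The members, lists and rules were chosen with earlier results of these data known. The text names the 8 members, *isl2a*, the 3 genes most like each member with a range of at least 1 on the log2 scale, listed genes called in a main comparison, *pth2*, *pth3r*, *pth2ra*, *stc1l*, *stc2b* and *gcm2*, and per list the gene with the widest difference between morphants and mutants; *rtcb*, *sost*, *zgc:162634*, *btbd10a*, *pth2rb*, the other neighbours and the markers were named after their values were seen. Alternatives were other normalizations, a trended prior, removal of dim probe sets, restriction to those with 1 symbol, the median probe set of a gene, the pairwise tests of the methods, limma on 2 groups at a time, either kind of wildtype as the control, no fold threshold, the replicate number as a block and each array left out. *pth4* and *trpv6* were not analysed here.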

Additional observations from a re-analysis of the deposited data

Results flagged for a closer look

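In all 72 genes were looked at, namely the 8 calcium genes, *isl2a*, the pathway and likeness genes named above, the 25 measured neighbours and 13 of the markers. Of these, 2 differed between the morphant and the mutant contrast by the test of the difference itself, the targeted gene *isl2a* and *rtcb*, the neighbour of *pthlha*. For *isl2a*, morphants exceeded uninjected wildtype by 1.34 on the log2 scale (higher in 3 of 3 arrays). Mutants exceeded their siblings by 0.47 (higher in 3 of 3 arrays), which did not pass the test (adjusted p = 0.176 from limma). The difference between these changes was 0.87 (standard error 0.14, adjusted p = 0.0387 from limma). For *rtcb* the changes were 1.24 and -0.11, and the difference between them was 1.35 (standard error 0.18, adjusted p = 0.02 from limma). None of the 8 calcium genes passed this test. Among the 4 control arrays, *bmal1b*, near *pth1b*, had 1 array apart from the other 3 by Dixon's criterion, sibling replicate 2 at 7.48 against 7.81 to 7.85. Chance alone places about 1 in 20 such groups beyond that criterion.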

How the results depend on the processing

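Of 200 counts of calls under the alternatives, 186 kept within 1.5 times their value, 7 fell below and 7 rose above it. Most of these counts were 0 at the main settings, and a 0 that stayed 0 was taken as kept. Of 1067 values of single genes of the 8 over 7 comparisons, 1060 kept their side of the threshold. The call was lost by 5 and gained by 2, all of them *pth1a*. None that was called changed sign, whereas 70 values not called under either setting did. Only *pth1a* was called at the main settings, so values of the other genes had no call to lose. With the pairwise tests of the methods the calls of the 8 genes went from 1 to 0 in morphants against mutants and to 0 in morphants against controls, and those of the 87 pathway genes to 0 in morphants against mutants. Without a fold threshold the pathway calls were 13 in morphants against mutants and 6 in morphants against controls. With limma refitted on probe sets of 1 symbol only, 1 of the 8 genes, *pth1a*, was called for the difference of the changes (2.59, adjusted p = 0.0292). Leaving out 1 array at a time gave 0 to 1 calls among the 8 genes in morphants against uninjected wildtype and for the difference of the changes, and among pathway genes 0 to 2 in morphants against mutants (0 without mutant replicate 2, 2 without morphant replicate 3 or mutant replicate 1) and 0 to 1 in mutants against controls (1 without mutant replicate 1). The cause of the changes in calls was not tested. For *pth1a* these fits gave 2.09 to 3.07 against mutants and 2.36 to 3.33 against controls, called each time; where 1 wildtype array remained in the fit with 4 groups, it was assumed to vary like the other groups. The filter on dim probe sets removed *pth1b*, *stc1* and *casr*, so they have no value there. It kept *pth1a*, which lay above the array median on the 3 morphant arrays only, so its call there is no separate check. Whether the replicate numbers of the labels pair the arrays was not settled. Deviations of same-numbered arrays correlated at -0.10 to 0.22 (13 pairs, 2 over 0.1). Those of differently numbered arrays correlated at -0.223 to 0.099 (24 pairs, 0 over 0.1). The pairs over 0.1 were morphant with sibling replicate 1 (0.223) and morphant with sibling replicate 2 (0.142). Deviations of the 2 arrays of a wildtype kind mirror each other, so these values return with opposite sign among the differently numbered pairs. The 24 pairs are thus not fully separate from the 13. With the replicate number as a block, *pth1a* differed by 2.55 from mutants (adjusted p = 0.0034) and by 2.56 from controls (adjusted p = 0.00626), and the counts of calls were 1 and 1 of 8 genes and 1 and 0 of 87 pathway genes, as without it.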
